A study of Sus scrofa with 6 samples.

Results

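The genes described here encode the proteins of the sarcomere, the contractile unit of striated muscle, in the cardiac and skeletal isoforms that differ between ventricle, atrium and skeletal fibres. The list held 52 genes, and every probe set of the Affymetrix Porcine Genome Array whose platform annotation gives 1 of these symbols and no other was kept. This gave 50 probe sets of 38 genes, out of 23999 probe sets tested and 6765 genes named on the array. The other 14 genes had no probe set under their symbol. They were the atrial isoforms MYH6 and MYL7, the cardiac MYBPC3, the fast skeletal MYH1, MYBPC2 and ACTN3, the skeletal ACTA1, the developmental myosins MYH3 and MYH8, and CSRP3, LDB3, LMOD2, MYOZ2 and MYPN, which heart and skeletal muscle share.

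In a sarcomere, thick filaments of myosin slide along thin filaments of actin, and calcium binding to the troponin complex moves tropomyosin and so opens actin to the myosin heads. Thin filaments are anchored at the Z disc and thick filaments at the M band, and titin spans both. Many of these proteins come in isoforms made from separate genes. Ventricular muscle of large mammals uses the beta myosin heavy chain, the fetal heart makes slow skeletal troponin I before cardiac troponin I takes its place, and fast skeletal isoforms are minor in the ventricle.

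Total RNA came from the left ventricular (LV) free wall of 6 Large White piglets aged 28 days, with 1 animal on each array. The 3 Dox-injected piglets received a single intravenous dose of 2.0 mg/kg doxorubicin (Dox), an anthracycline that injures cardiac muscle, at 8 days of age, 3 weeks before the tissue was taken. The 3 PBS-injected piglets received the saline vehicle and served as controls. The dose and the ages come from the sample labels, and the methods of the study give a dose range and other ages. The comparison asks how transcripts of the LV myocardium differ between Dox-injected and PBS-injected piglets.

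The deposited values are MAS5 signals, the linear brightness of each probe set, which the authors scaled to the same trimmed mean on every array. All differences below are log2 of the Dox signal minus log2 of the PBS signal, fitted with limma over all 23999 probe sets. Unless said otherwise, 3 signals in a row belong to replicates 1 to 3 of a group. Array medians lay between 13.5 and 17.8. The bright end of the scale differed, with highest signals from 8344.7 in PBS replicate 1 to 13683.5 in Dox replicate 3. Control probe sets compare the end of a transcript with its start. For actin this signal ratio was 35.1 to 120.6 on PBS and 29.6 to 76.9 on Dox arrays. For GAPDH it was 1.16 to 1.28 and 1.24 to 1.55. Its part in differences between probe sets of 1 gene was not tested. Dox replicate 3 stood apart from the rest, with correlations of 0.887 to 0.926 with the other arrays against 0.923 to 0.964 among those. Results that rest on it are given with and without it. With 3 animals against 3, an exact permutation test cannot give a two-sided p below 0.1.

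The labelled tissue was checked against cardiac genes. All 7 ventricular genes with a probe set, namely MYH7, MYL2, MYL3, ACTC1, TNNC1, TNNI3 and TNNT2, had signals of at least 4250.1 on every array. The class holds isoforms that ventricular muscle uses, and it is not a list of isoforms found only there. High signals of these genes therefore do not by themselves tell ventricle from other striated muscle. Their probe sets held ranks between 9 and 91 of all probe sets tested on each array. A signal was taken as above background when it was above the highest Tag signal of its array, which lay between 2.5 and 6.3. The Tag probe sets are array controls for artificial sequences that no pig transcript matches. Of the 50 probe sets, 43 (86%) were above the Tag range on all 6 arrays, against 58.4% of all probe sets tested. On 3 or more arrays 47 of the 50 (94%) were above it, against 71.1% of all tested, and these covered 35 of the 38 genes.

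The probe sets near the Tag range all belonged to skeletal isoforms. MYH2, by the platform annotation the IIa myosin heavy chain of fast fibres, though a table of the study names this probe set MYH4, with signals of 0.2 to 2.1, and TNNT3, fast skeletal troponin T, with 0.3 to 3.4, were not above the Tag range on any array. MYBPC1, slow skeletal myosin-binding protein C, was above it on 1 array with signals of 0.6 to 3.5. A table of the study gives the name TNNT3 to another probe set. The platform annotation does not give that probe set this symbol alone, and it was not read here. Differences of MYH2, TNNT3 and MYBPC1 enter the counts over all 50 probe sets and over the settings, and are not read otherwise. The fast light chain MYLPF and the pointed end cap TMOD4 were above the range on 3 arrays, and the fast troponins TNNC2 and TNNI2 on 4. Against 6.3, the highest Tag signal of any array, these 4 were above on 0, 1, 2 and 2 arrays. Among the probe sets read, this leaves MYL1 and MYOZ1 as the fast skeletal isoforms above background, and 43 of the 50 probe sets in all. MYL4, the only measured atrial isoform, was above it on all 6.

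A probe set was called when its limma p, adjusted with Benjamini-Hochberg over all probe sets tested, was at most 0.05 and its fold was at least 2, the threshold the study used. No sarcomere probe set was called by limma, and none of the 23999 was (0%). With the methods' t-test no probe set of the array was called either. At an unadjusted limma p of at most 0.05, 7 of the 50 sarcomere probe sets were higher in Dox-injected piglets, against 3.62% of all tested, and 1 was lower, against 5.92%. Of the 25 sarcomere probe sets with a geometric mean signal of at least 1000, 6 were higher at that p, as were 137 of the 734 other probe sets of that brightness. The 7 were MYH7, MYOM2, TCAP, MYOT, MYOZ1, 1 of 2 for ACTN2 and 1 of 4 for TPM2, and the 1 was MYL1. These counts moved with the setting. None was higher at that p with the methods' t-test or with limma without an intensity trend, and leaving out PBS replicate 1 or Dox replicate 3 left 1 in each case.

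Groups whose 3 signals did not overlap were also counted. In 8 of the 50 probe sets every Dox signal was above every PBS signal, against 6.19% of all tested. These belonged to MYH7, MYL3, TNNC1, TNNT2, MYOM1, MYOM2, TCAP and the brightest TPM1 probe set. In 2 probe sets, MYL1 and TMOD4, every Dox signal was below every PBS signal, against 10.1% of all tested. All 8 of the first kind were among the 25 sarcomere probe sets with a geometric mean signal of at least 1000, and 251 of the 734 other probe sets of that brightness did the same.

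Over all 50 probe sets, 36 differences were above 0 and 14 below, with a median of 0.22, whereas over all probe sets tested 42.9% were above 0 with a median of -0.10. After quantile normalization, which gives every array the same distribution of signals, 23 of the 50 were above 0 and the median was -0.0052. The array as a whole moved too under that scaling, from 37.9% to 49.6% of the probe sets at an unadjusted p of at most 0.05 being higher. Of the 25 sarcomere probe sets with a geometric mean signal of at least 1000, 23 were above 0 on the MAS5 scale and 12 after quantile normalization.

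**Figure D1:**
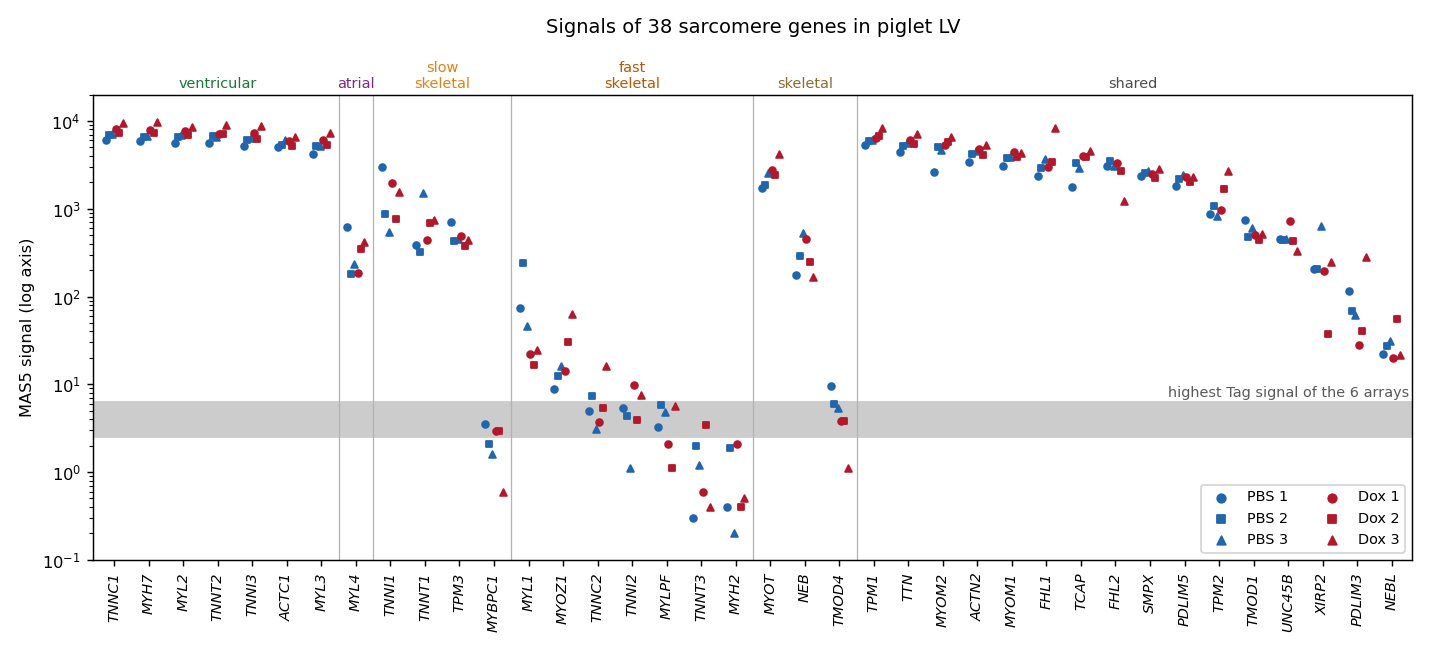
MAS5 signal (log axis) of the 38 measured sarcomere genes on the 6 arrays, at the brightest probe set of each, grouped by isoform class, with PBS arrays in blue, Dox arrays in red and the range of the highest Tag signals in grey. The ventricular isoforms lie at or above 4250.1 on every array, whereas MYH2 and TNNT3 lie below the highest Tag signal of every array.

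**Figure D2:**
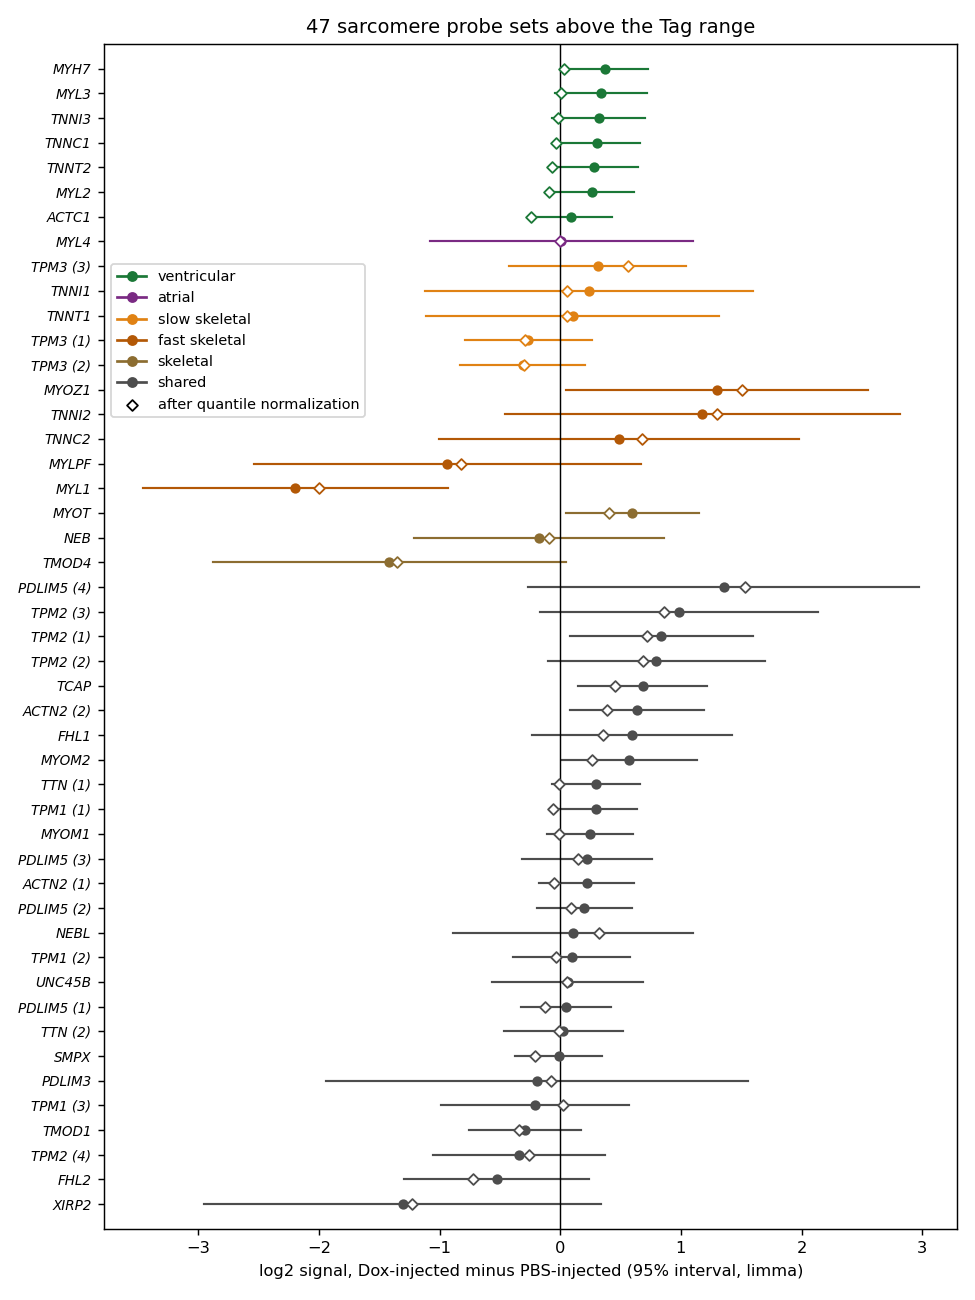
Log2 signal, Dox minus PBS, of the 47 sarcomere probe sets above the Tag range, as filled points with the 95% interval from limma, and after quantile normalization as open diamonds, with colours for isoform classes. MYL1 has the lowest value, at -2.19, and the 7 ventricular genes lie between 0.09 and 0.37, of which 5 lie below 0 after quantile normalization.

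The ventricular isoforms had small differences, all above 0 on the MAS5 scale and mostly below 0 after quantile normalization. Their median difference was 0.31, with a range of 0.09 to 0.37, and it was -0.037 after quantile normalization with 2 genes above 0 and 5 below. None was called by limma. MYH7, the beta myosin heavy chain and motor of the ventricle, had signals of 5898.7, 6615.7 and 6828.9 in PBS-injected and 7979.8, 7379.5 and 9785.6 in Dox-injected piglets. All 3 Dox signals were higher, with Dox replicate 3 the highest. The mean was 6448 ± 487 (SD, n = 3) against 8382 ± 1252 (SD, n = 3), a difference of 0.37 on the log2 scale (SE 0.15, limma p = 0.041, adjusted p = 0.521, exact permutation p = 0.1). It was 0.25 without Dox replicate 3 and 0.03 after quantile normalization.

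MYL2 and MYL3 encode the regulatory and the essential light chain that stiffen the lever arm of ventricular myosin. For MYL2 the signals were 5629.5, 6562.3 and 6952.1 in PBS-injected and 7626.2, 6894.3 and 8504.6 in Dox-injected piglets. Here Dox replicate 2 lay below PBS replicate 3, so that the groups overlapped, and the difference was 0.27 (SE 0.15, limma adjusted p = 0.580). For MYL3 they were 4250.1, 5151.4 and 5241.1 against 5998, 5307.8 and 7225.3. The groups did not overlap, by a margin of less than the spread within either, with a difference of 0.33 (SE 0.17, limma adjusted p = 0.548) that was 0.22 without Dox replicate 3. After quantile normalization MYL2 lay at -0.09 and MYL3 close to 0.

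The cardiac troponins form the calcium switch of the thin filament, in which TNNC1 binds calcium, TNNI3 inhibits the myosin contact and TNNT2 ties the complex to tropomyosin. TNNC1 had signals of 5998.6, 6907.9 and 7078.9 in PBS-injected against 8037.2, 7252.4 and 9538.7 in Dox-injected piglets, without overlap. TNNI3 had 5188, 6098.9 and 6360.6 against 7254.9, 6178.8 and 8717.8, with Dox replicate 2 inside the PBS range. TNNT2 had 5566.2, 6812.4 and 6553.8 against 7087.2, 7078.8 and 8923.8, again without overlap. The differences were 0.31, 0.32 and 0.28 in that order, with SEs of 0.15, 0.17 and 0.16 and limma adjusted p of 0.548, 0.565 and 0.577. Without Dox replicate 3 they were 0.20, 0.19 and 0.17, and all 3 lay slightly below 0 after quantile normalization.

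ACTC1, the cardiac alpha-actin of the thin filament, had the smallest difference of the class. Its signals were 5082.9, 5357 and 5993.7 in PBS-injected and 5891.7, 5129.6 and 6487.4 in Dox-injected piglets. The groups overlapped over most of their range, and the difference was 0.09 (SE 0.15, limma adjusted p = 0.859). It was 0.0086 without Dox replicate 3 and -0.24 after quantile normalization.

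The 7 ventricular genes moved from array to array in parallel. Every one of them had its lowest signal in PBS replicate 1 and its highest in Dox replicate 3. Relative to the PBS mean, their median was -0.18, 0.06 and 0.11 on the PBS arrays and 0.27, 0.13 and 0.52 on the Dox arrays. The 734 bright probe sets that are no sarcomere genes followed the same order, with medians of -0.13, 0.06 and 0.07 and then 0.18, 0.09 and 0.31. Quantile normalization, which by its construction gives the brightest ranks nearly the same values on each array, left ventricular medians of -0.06 to 0.02. Whether the higher MAS5 signals of these genes reflect more transcript or the brighter upper end of the Dox arrays cannot be told apart from these values. Without Dox replicate 3 the class median was 0.19, and without PBS replicate 1 it was 0.23.

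**Figure D3:**
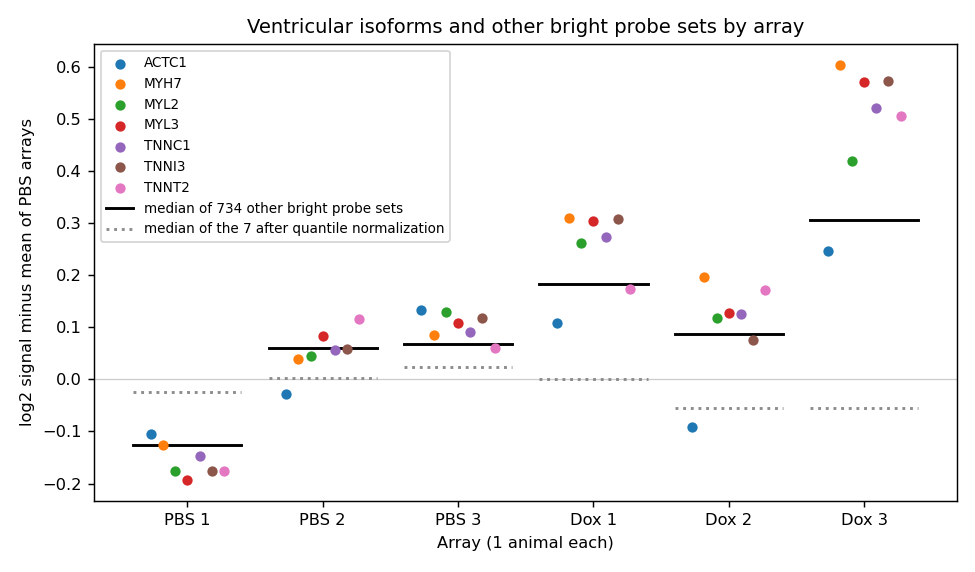
Log2 signal relative to the PBS mean on each array for the 7 ventricular isoforms (points), with the median of the 734 other probe sets of a geometric mean signal of at least 1000 (black lines) and the median of the 7 after quantile normalization (dotted lines). Points and black lines are lowest in PBS replicate 1 and highest in Dox replicate 3, whereas the dotted lines stay within -0.06 and 0.02.

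MYL4, the essential light chain of the atria and of the embryonic heart, differed far more between animals than the ventricular isoforms did. Its signals were 619.6, 179.4 and 235.9 in PBS-injected and 183.7, 348.9 and 417.2 in Dox-injected piglets. PBS replicate 1 was the highest of all 6 and the other values of both groups were mixed. The difference was 0.01 (SE 0.48, 95% interval -1.08 to 1.10, limma adjusted p = 0.997), and it ranged from -0.35 to 0.54 as single arrays were left out, with -0.23 without Dox replicate 3. The within-group SD of the log2 signal was 0.94 in PBS-injected and 0.62 in Dox-injected piglets, against class medians of 0.15 and 0.20 for the ventricular isoforms.

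None of the slow skeletal isoforms reached an unadjusted limma p of at most 0.05, and leaving out single animals turned the sign of the TNNI1 and TNNT1 differences. TNNI1, the slow skeletal troponin I that the fetal heart uses, had signals of 3008.2, 870.3 and 544.5 in PBS-injected and 1948.8, 762 and 1571 in Dox-injected piglets. The highest and the lowest value were both in the PBS group, 5.52 times apart. The difference was 0.24 (SE 0.59, 95% interval -1.12 to 1.59, limma adjusted p = 0.906, exact permutation p = 0.9). Leaving out PBS replicate 1 gave 0.95, leaving out PBS replicate 3 gave -0.29 and leaving out Dox replicate 3 gave 0.11. After quantile normalization it was 0.05.

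TNNT1, slow skeletal troponin T, had its outlying value in another animal. It had signals of 383.6, 318.8 and 1495.2 in PBS-injected and 439.7, 689.3 and 746.6 in Dox-injected piglets. PBS replicate 3 lay above all other arrays and the remaining PBS signals below all Dox signals. The difference was 0.10 (SE 0.53, limma adjusted p = 0.953), 0.80 without PBS replicate 3 and -0.04 without Dox replicate 3. TNNT1 lies next to TNNI3 on chromosome 6 in Sscrofa11.1, and the arrays that were highest for these neighbours were not the same.

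TPM3, the slow skeletal tropomyosin, whose gene also makes non-muscle forms, had 3 probe sets. The brightest gave 703.5, 431.8 and 450.9 in PBS-injected and 484.9, 373.6 and 437.3 in Dox-injected piglets. PBS replicate 1 was highest and the other arrays overlapped, with a difference of -0.26 (SE 0.23, limma adjusted p = 0.702). The second probe set lay at -0.31 and the third, which was dim with signals of 14.7 to 26.2, at 0.31 and at 0.19 without Dox replicate 3. The class median over 5 probe sets was 0.10, with values of -0.31 and -0.29 when PBS replicate 2 or PBS replicate 3 was left out.

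The fast skeletal isoforms held both the lowest and one of the highest differences of the whole set. MYL1, the essential light chain of fast skeletal myosin, had signals of 74.4, 242.4 and 46.6 in PBS-injected and 21.9, 16.4 and 24.4 in Dox-injected piglets. The 3 Dox signals lay close together and all below the lowest PBS signal, whereas the PBS signals were spread widely. The mean was 121 ± 106 (SD, n = 3) against 20.9 ± 4.09 (SD, n = 3). The difference was -2.19 on the log2 scale (SE 0.55, 95% interval -3.46 to -0.93, limma p = 0.004, adjusted p = 0.521, exact permutation p = 0.1). It ranged from -2.70 to -1.51 as single arrays were left out, the smallest size being without PBS replicate 2, and was -1.999 after quantile normalization. MYL1 was above the Tag range on all 6 arrays.

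MYOZ1, a calcineurin-binding Z disc protein of fast fibres, went the other way. Its signals were 8.8, 12.5 and 16.3 in PBS-injected and 14, 30.5 and 62.5 in Dox-injected piglets. Dox replicates 2 and 3 were above all PBS signals and Dox replicate 1 lay among them. The difference was 1.30 (SE 0.55, limma p = 0.044, adjusted p = 0.521, exact permutation p = 0.2), 1.51 after quantile normalization and 0.77 without Dox replicate 3.

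The remaining fast isoforms above the Tag range were dim and none passed an unadjusted p of 0.05. TNNI2, fast skeletal troponin I, had signals of 5.3, 4.3 and 1.1 in PBS-injected and 9.8, 3.9 and 7.6 in Dox-injected piglets, a difference of 1.18 (SE 0.72, limma adjusted p = 0.599) with overlapping groups. TNNC2, fast skeletal troponin C, had 5, 7.4 and 3.1 against 3.7, 5.3 and 16, and its difference of 0.48 became -0.13 without Dox replicate 3. MYLPF, the regulatory light chain of fast fibres, had 3.3, 5.8 and 4.8 against 2.1, 1.1 and 5.7, a difference of -0.93 (SE 0.70, limma adjusted p = 0.656) that was -1.57 without Dox replicate 3. Signals this close to the Tag range cannot carry an order of the animals. The class median over the 5 probe sets above that range was 0.48, with 3 above 0 and 2 below, and it was -0.13 without Dox replicate 3. Both values are those of the dim TNNC2 probe set, so the median is not read as a shift of the class.

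MYOT, NEB and TMOD4 were measured from the class of skeletal proteins not tied to a fibre type. MYOT encodes myotilin, which binds and bundles actin at the Z disc. Its signals were 1735.7, 1846.7 and 2547.8 in PBS-injected and 2777.9, 2425.9 and 4205.3 in Dox-injected piglets. Levels of different probe sets cannot be compared, so these signals do not show whether MYOT acts as a skeletal isoform in this tissue. Only Dox replicate 2 fell within the PBS range, and the difference was 0.60 (SE 0.24, limma p = 0.036, adjusted p = 0.521, exact permutation p = 0.2). It was 0.41 after quantile normalization and 0.37 without Dox replicate 3.

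NEB, nebulin, which runs along the thin filament of skeletal muscle, had signals of 176.9, 293 and 522.7 in PBS-injected and 451.9, 249.1 and 166.5 in Dox-injected piglets. The groups covered the same range, with a difference of -0.18 (SE 0.45, limma adjusted p = 0.909) that became 0.22 without PBS replicate 3 and 0.16 without Dox replicate 3. TMOD4, the skeletal cap of thin filament pointed ends, had 9.5, 6 and 5.3 against 3.8, 3.8 and 1.1. All Dox signals were lower, with a difference of -1.42 (SE 0.64, limma p = 0.056, adjusted p = 0.528, exact permutation p = 0.1), but only 3 of its 6 signals were above the Tag range. It was -0.82 without Dox replicate 3.

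**Figure D4:**
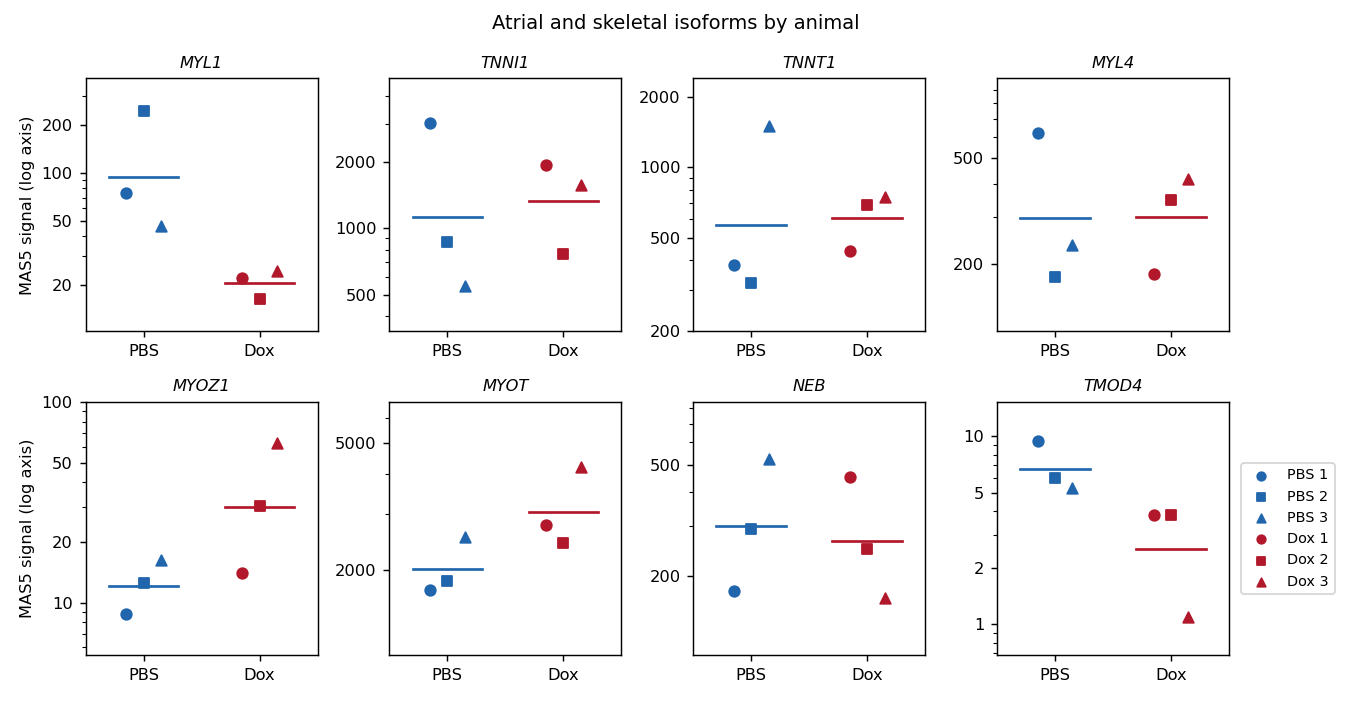
MAS5 signals (log axis) of the atrial MYL4, the slow skeletal TNNI1 and TNNT1, the fast skeletal MYL1 and MYOZ1 and MYOT, NEB and TMOD4 of the skeletal class, with 1 point for each array and a line at the geometric mean of each group. The Dox signals of MYL1, 16.4 to 24.4, lie below all PBS signals, whereas those of TNNI1, TNNT1 and MYL4 overlap.

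Pairs of isoforms that take the same place in the sarcomere were compared within arrays, as the change of log2 signal of one relative to the other, with no test. MYL1 relative to MYL3 differed by -2.53 between Dox-injected and PBS-injected piglets, where the pooled SD was 0.86 and the groups did not overlap. In the other 5 pairs the groups overlapped. It was -0.33 for MYL4 relative to MYL3 (SD 0.88), -0.08 for TNNI1 relative to TNNI3 (SD 1.09) and -0.18 for TNNT1 relative to TNNT2 (SD 0.87). TNNC2 relative to TNNC1 gave 0.18 (SD 0.82), and TPM2 relative to TPM1 gave 0.54 (SD 0.41). In both, Dox replicate 3 was the highest of all arrays. For TNNC2 relative to TNNC1 the Dox values were -11.09, -10.42 and -9.22, against a PBS mean of -10.42. For TPM2 relative to TPM1 they were -2.70, -2.03 and -1.61, against a PBS mean of -2.66. After quantile normalization MYL1 relative to MYL3 differed by -2.0016 and MYL4 relative to MYL3 by -0.0043. On that scale TNNI1 relative to TNNI3 gave 0.07 and TNNT1 relative to TNNT2 gave 0.12, both with the sign turned. TNNC2 relative to TNNC1 gave 0.71 and TPM2 relative to TPM1 gave 0.78. The part of the brighter upper end of the Dox arrays in the pair values was not tested. Pairs that need MYH6, MYL7, ACTA1 or MYOZ2, among them the alpha and beta myosin heavy chains, were not formed, since no probe set carries these symbols in the platform annotation. A probe set that a table of the study names ACTA1 is annotated as ACTG1 there and was not used.

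Tropomyosin winds along the thin filament and blocks or opens the myosin sites. TPM1, alpha-tropomyosin and the main form of the heart, had 3 probe sets. The brightest gave 5357.5, 5949.6 and 6037.2 in PBS-injected and 6352.3, 6759.7 and 8230.1 in Dox-injected piglets, without overlap. Its difference was 0.29 (SE 0.15, limma adjusted p = 0.557) with 0.18 without Dox replicate 3 and -0.06 after quantile normalization. The others lay at 0.09, with signals of 905 to 1324.3, and at -0.21, with signals of 10.5 to 15.1.

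TPM2, beta-tropomyosin, had 4 probe sets, of which 3 were higher in the Dox group and 1 was not. The brightest gave 860.6, 1086.3 and 821.6 in PBS-injected and 980.1, 1658.4 and 2690.7 in Dox-injected piglets. Dox replicates 2 and 3 were above all PBS signals and Dox replicate 1 lay among them. The difference was 0.84 (SE 0.33, limma p = 0.034, adjusted p = 0.521, exact permutation p = 0.2), 0.48 without Dox replicate 3 and 0.72 after quantile normalization. The next probe sets in brightness gave 0.80 (SE 0.39) and 0.98 (SE 0.50), with limma adjusted p of 0.546 and 0.557. In both, Dox replicate 1 was below all PBS signals and the other Dox replicates were above them. They were 0.40 and 0.48 without Dox replicate 3, and 1.30 and 1.63 without Dox replicate 1. The identifiers of these 3 name the same transcript cluster, so that they are not independent. The fourth, from another cluster, had signals of 137.6 to 205.6 in the PBS group, 87.6 to 191.1 in the Dox group and a difference of -0.34 (SE 0.31), which was -0.60 without Dox replicate 3.

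TTN encodes titin, the elastic filament from Z disc to M band. Its brighter probe set ranged from 4375.6 to 5570 in the PBS group and from 5520.3 to 7056.1 in the Dox group, a difference of 0.30 (SE 0.16, limma adjusted p = 0.569) that was -0.0090 after quantile normalization. The dimmer one lay at 0.02, and at -0.06 without Dox replicate 3. The myomesins crosslink thick filaments at the M band. MYOM2 had signals of 2633.4, 5023.8 and 4693.6 in PBS-injected and 5354.1, 5802.3 and 6576.3 in Dox-injected piglets. The groups did not overlap, and PBS replicate 1 lay well below the rest. The difference was 0.57 (SE 0.25, limma p = 0.047, adjusted p = 0.521, exact permutation p = 0.1), 0.26 after quantile normalization and 0.28 without PBS replicate 1.

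MYOM1 showed a smaller difference. Its signals were 3045.1, 3826.5 and 3842.7 in PBS-injected and 4458.5, 3864 and 4335.6 in Dox-injected piglets. The groups were separated by a narrow margin, with a difference of 0.25 (SE 0.16, limma adjusted p = 0.608) and of -0.0092 after quantile normalization.

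TCAP, telethonin, which caps the Z disc end of titin, had the smallest unadjusted p among the higher probe sets. Its signals were 1758.7, 3288.4 and 2901.9 in PBS-injected and 4023.2, 3845.6 and 4489.5 in Dox-injected piglets. All Dox signals were higher, and PBS replicate 1 was far below the others. The mean was 2650 ± 795 (SD, n = 3) against 4119 ± 333 (SD, n = 3), a difference of 0.68 (SE 0.23, limma p = 0.018, adjusted p = 0.521, exact permutation p = 0.1). It was 0.46 after quantile normalization, 0.62 without Dox replicate 3 and 0.41 without PBS replicate 1.

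ACTN2, alpha-actinin 2, crosslinks thin filaments of neighbouring sarcomeres in the Z disc, and its 2 probe sets differed. The dimmer one gave 2431.3, 3227.1 and 2982.6 in PBS-injected and 3173, 4475 and 6151 in Dox-injected piglets. Dox replicates 2 and 3 were above all PBS signals, and the difference was 0.63 (SE 0.24, limma p = 0.030, adjusted p = 0.521, exact permutation p = 0.2) and 0.39 after quantile normalization. Without Dox replicate 3 it was 0.40 and no longer passed an unadjusted p of 0.05. The brighter one ranged from 3428.4 to 4601.9 in the PBS group and from 4063 to 5374.9 in the Dox group, a difference of 0.22 (SE 0.17) that was 0.12 without Dox replicate 3 and -0.05 after quantile normalization.

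**Figure D5:**
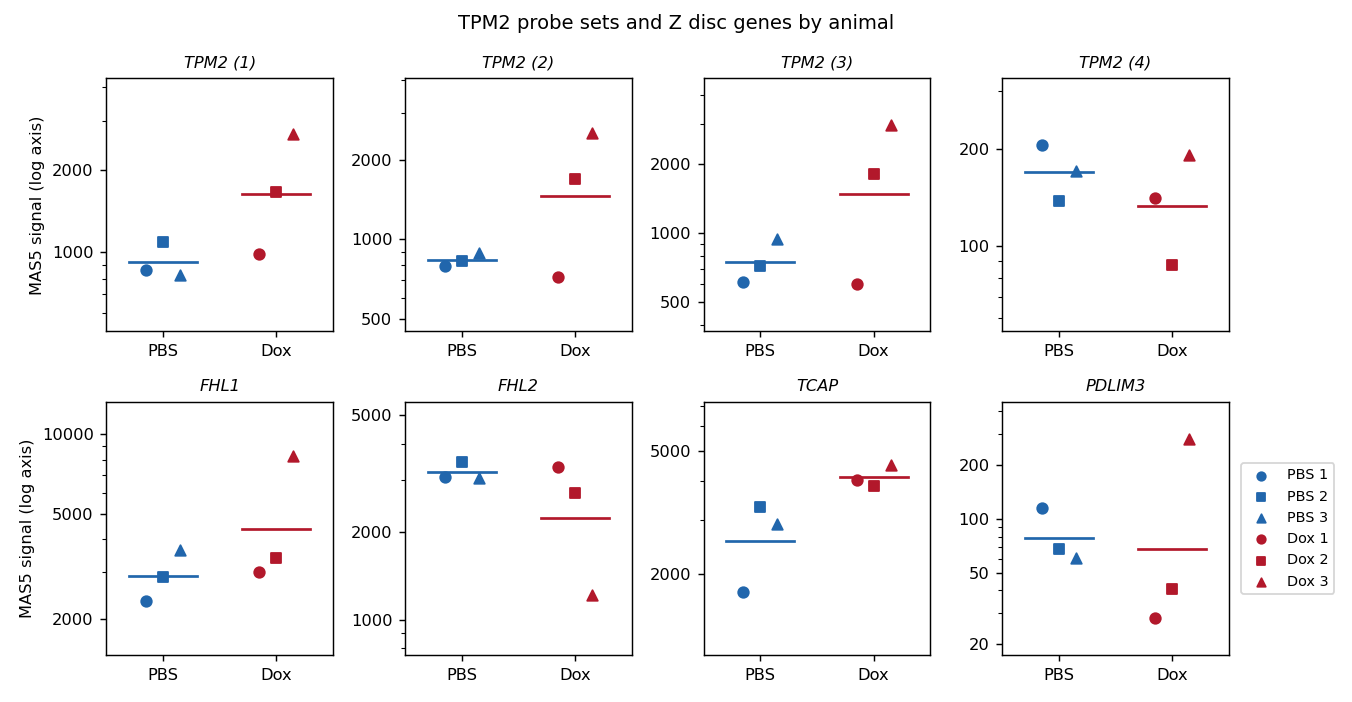
MAS5 signals (log axis) of the 4 TPM2 probe sets and of the Z disc genes FHL1, FHL2, TCAP and PDLIM3, with 1 point for each array and a line at the geometric mean of each group. In 3 of 4 TPM2 probe sets Dox replicates 2 and 3 lie above the PBS signals, in TCAP all Dox signals do, and FHL1, FHL2 and PDLIM3 have their extreme value in Dox replicate 3.

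Several LIM domain proteins of the Z disc had values set by Dox replicate 3, and they are named here after their values were seen. FHL1 ranged from 2340.2 to 3654.3 in the PBS group and from 3016.8 to 8265.6 in the Dox group, with a difference of 0.60 (SE 0.36, limma adjusted p = 0.599) that was 0.14 without that array and 0.35 after quantile normalization. FHL2, the form of the heart, ranged from 3054.4 to 3467 and from 1210.5 to 3328.5, with a difference of -0.53 (SE 0.34, limma adjusted p = 0.613) that was -0.09 without it and -0.72 after quantile normalization. Dox replicate 3 thus held the highest FHL1 and the lowest FHL2 signal. PDLIM3, which binds alpha-actinin, ranged from 60.8 to 114.9 and from 27.9 to 281.7, and its difference of -0.19 was -1.21 without that array.

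PDLIM5, a PDZ and LIM protein of the Z disc, had 4 probe sets with differences of 0.05, 0.20, 0.23 and 1.35, all with limma adjusted p of at least 0.562. The value of 1.35 (SE 0.71) came from the dimmest, with PBS signals of 18.7 to 25.3 and Dox signals of 15.3 to 127.1. Leaving out Dox replicate 3 gave 0.77 for it and 0.014 for the brightest probe set, and leaving out Dox replicate 1 gave 2.30 for the dimmest. NEBL, nebulette of the cardiac Z disc, had signals of 19.7 to 55.9 and a difference of 0.10 (SE 0.44), which was 0.31 without Dox replicate 3.

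No protein of filament ends or of assembly that heart and skeletal muscle share reached an unadjusted limma p of at most 0.05. TMOD1, which caps thin filaments in the heart, had PBS signals of 482.1 to 737.9 and Dox signals of 440.2 to 519.7, a difference of -0.29 (SE 0.20, limma adjusted p = 0.633). UNC45B, the chaperone of muscle myosin, lay at 0.06 (SE 0.27) and SMPX, a small muscle protein of the costamere, at -0.01 (SE 0.16). Without Dox replicate 3 they were 0.31 and -0.11, and SMPX was -0.21 after quantile normalization. XIRP2, a Xin repeat protein of the intercalated disc, had 203.2 to 636 against 37 to 244.2, a difference of -1.30 (SE 0.72, limma adjusted p = 0.575) that was -0.45 without Dox replicate 2.

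The spread between animals was smallest in the ventricular isoforms. The median within-group SD of the log2 signal was 0.15 in PBS-injected and 0.20 in Dox-injected piglets for ventricular isoforms, 0.22 and 0.34 for shared proteins, and 0.63 and 1.08 for fast skeletal isoforms. Slow skeletal isoforms had 0.39 and 0.21, and all probe sets of the array above the Tag range had 0.27 and 0.43. The classes differed in brightness, and its part in the spread was not tested. The 26 shared probe sets had a median difference of 0.21, with 19 above 0 and 7 below, and of 0.01 after quantile normalization with 13 on each side. Split by brightness, 23 of the 25 sarcomere probe sets at or above a signal of 1000 were above 0, against 69.6% of the 734 others. After quantile normalization these values were 12 of the 25 and 46.7% of the others. Of the 22 dimmer sarcomere probe sets above the Tag range 11 were above 0 and 11 below on the MAS5 scale. Of the 47 probe sets above the Tag range, 24 (51.1%) were highest in Dox replicate 3 and 19 (40.4%) lowest in PBS replicate 1. Over all such probe sets of the array these shares were 22.2% and 16.2%, without matching for brightness.

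Other genes of the contractile apparatus, its chaperones and its regulators were listed as sarcomere partners. Of 56 such genes 29 were measured, each read at its brightest probe set. Of these 19 were above 0 and 10 below, with a median of 0.23, and none was called by limma. The unadjusted limma p was at most 0.05 for 6 higher genes and 1 lower gene, where all tested gave 3.62% and 5.92%. Of the 734 probe sets outside the sarcomere list with a geometric mean signal of at least 1000, 137 were higher and 19 lower at that p. The partners were not split by brightness. SMYD1, a muscle methyltransferase needed for myosin assembly, had signals of 48.3, 32.7 and 34.3 in PBS-injected and 17.6, 8.1 and 10.3 in Dox-injected piglets. All Dox signals were lower, with a difference of -1.74 (SE 0.39, limma adjusted p = 0.521).

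XIRP1, the cardiac Xin repeat protein and a relative of XIRP2, had 850, 1534.3 and 1193 against 1658.5, 3721.9 and 7131.6. Every Dox signal was higher, with a difference of 1.61 (SE 0.47, limma adjusted p = 0.521) that was 1.10 without Dox replicate 3. ABRA, an actin-binding protein of striated muscle, had 196.3, 856.1 and 615.5 against 788.1, 3043.7 and 6294.1, with Dox replicate 1 inside the PBS range. The difference was 2.40 (SE 0.76, limma adjusted p = 0.521), and 1.72 without Dox replicate 3. ANKRD1, a stress-responsive ankyrin repeat protein that binds titin, had 4468.6, 5091.6 and 5318 against 6652.7, 6260.1 and 8802.6. Its groups did not overlap, with a difference of 0.53 (SE 0.17, limma adjusted p = 0.521) that was 0.21 after quantile normalization and 0.38 without Dox replicate 3.

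Markers of other cells in the LV wall were read beside these results, at the brightest probe set of each gene. All 6 measured fibroblast markers of 8 were below 0, with a median of -0.79 and summed signals of 2414.9 to 3335.1 in the PBS group against 927 to 2250.1 in the Dox group. Of the 6 measured endothelial markers of 7, 5 were below 0, with sums of 1331.4 to 1997.2 against 1117.5 to 1282.2. The 6 measured smooth muscle markers of 8 had sums of 3238.1 to 4891.5 against 3176.3 to 4087.6. Their part in the higher signals of cardiac genes was not tested, and in bulk tissue fewer cells of a type and less RNA per cell cannot be told apart. The 5 measured leukocyte markers of 8 summed to 201.5 to 285.2 against 264.8 to 473.9, the 3 red cell markers of 8 to 186.8 to 683.6 against 106.1 to 251.1, and the 3 adipocyte markers of 5 to 856.1 to 1039.3 against 753.4 to 1095.7.

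Markers of skeletal muscle and of the atria bear on the skeletal and atrial isoforms. Of 7 measured skeletal muscle markers of 11, only CKM, the creatine kinase that heart and skeletal muscle share, and CHRNA1 were above the Tag range on at least 3 arrays, while the myogenic factors MYF5, MYF6 and MYOD1 were not. The skeletal sums of 4702.9 to 5755.1 against 6302.5 to 8352.1 were almost all CKM. The 3 measured atrial markers of 7, NPPA, NR2F2 and SLN, summed to 257.1 to 614.6 against 345.1 to 5718.6, the highest being Dox replicate 3. Most of that sum was NPPA, the natriuretic peptide gene that stressed ventricle also makes, with 5564.9 on that array. SLN was highest on that array too, with 6.2, 9.4 and 17.6 in PBS-injected and 7.1, 11.3 and 118.7 in Dox-injected piglets. NR2F2 read 44.9 to 77 in the PBS group and 35 to 44.3 in the Dox group. MYL4 was highest in PBS replicate 1. No marker of these lists was at 0 on any array.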

How the data were processed

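Each deposited value is a linear MAS5 intensity, made by the authors with GCOS, for which the submitters' processing notes name version 1.4. On these values the 2% trimmed mean was 100.03 on 5 arrays and 100.04 on the other. Scanner files were not used here, so background correction and scaling stayed as deposited. The tests left out 124 array controls. Signals of 0, found on 1 or more arrays for 311 probe sets and for 0 sarcomere probe sets, were raised to 0.1, the smallest other signal.

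Groups and replicate numbers came from the sample labels, which describe 1 animal for each array. In R 4.3.3, limma 3.58.1 fitted log2 signals of all 6 arrays with lmFit and eBayes with an intensity trend, without a covariate, and p was adjusted with Benjamini-Hochberg over 23999 probe sets. Single genes were also compared with exact two-sided permutation tests. The number of arrays limits the precision. The fit was tested on simulated data.

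Gene names came from the platform annotation, in which 10069 of those tested have 1 symbol, 198 have several and 13732 have none. All probe sets of a sarcomere gene were kept and numbered by geometric mean signal. For partner and marker genes only the brightest probe set of each gene was read. This left 29 of 43 probe sets for the partners, 6 of 9 for fibroblast markers and 6 of 13 for endothelial markers. Signals of each array are given for the brightest probe set of every ventricular, atrial or skeletal isoform above the Tag range on at least 3 arrays, and for those whose groups did not overlap or whose unadjusted p was at most 0.05. Partner genes are the 4 with the smallest p. The member genes and lists were chosen with earlier results of these data known. Class medians and isoform pairs carry no test. Alternatives were quantile normalization, leaving out dim probe sets, an offset of 16 added before log2, the methods' t-test on log2 signals, a replicate block, eBayes with no trend, the mean of the probe sets of a gene, another Tag reference and leaving out each array. Figures were drawn with matplotlib 3.10.9.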

Additional observations from a re-analysis of the deposited data

How the results depend on the processing

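Of the 50 sarcomere differences, 25 kept their sign under every setting run and 25 did not. Calls over the whole array ranged from 0 to 14 as single arrays were left out, the 14 being without Dox replicate 1, and no sarcomere probe set was among them. The number of sarcomere probe sets higher in the Dox group at an unadjusted p of at most 0.05 was 4 after quantile normalization, 0 without an intensity trend and 0 with the methods' t-test, and ranged from 1 to 9 with single arrays left out. The number lower was 2 after quantile normalization, 2 with the offset and 2 without a trend, and ranged from 1 to 4. With the replicate number as a block these numbers were 11 and 2. The correlations of same-numbered arrays were -0.050, 0.060 and -0.11, so the numbers are not read as pairs.

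After quantile normalization the ventricular class median was -0.037, and these differences changed sign: ACTC1 -0.24, MYL2 -0.093, TNNC1 -0.037, TNNI3 -0.014, TNNT2 -0.068, MYL4 -0.0018, TNNT3 -0.0017, MYOM1 -0.0092, the brightest probe sets of ACTN2 -0.053, PDLIM5 -0.12, TPM1 -0.060 and TTN -0.0090, the second of TPM1 -0.031 and of TTN -0.0086, and the third of TPM1 0.025. With single arrays left out, the class median ranged from -0.31 to 0.014 for slow skeletal and from -0.13 to 0.90 for fast skeletal isoforms. Differences that changed sign on leaving out an array ranged from -0.79 to 0.35 for MYBPC1, -0.26 to 1.405 for MYH2, -0.35 to 0.54 for MYL4, -0.56 to 0.22 for NEB, -0.37 to 0.38 for NEBL, -1.21 to 0.46 for PDLIM3, -0.06 to 0.14 for the brightest PDLIM5 probe set, -0.11 to 0.077 for SMPX, -0.13 to 0.92 for TNNC2, -0.29 to 0.95 for TNNI1, -0.31 to 0.80 for TNNT1, -0.87 to 0.67 for TNNT3, -0.017 to 0.27 for the second TPM1 probe set, -0.091 to 0.22 for the second TTN probe set and -0.25 to 0.31 for UNC45B. The cause of these changes was not tested.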
